A study of Mus musculus with 33 samples.

Results

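The samples described here are the RNA-seq libraries of the wild-type CH12 lines, 12 of the 33 samples of the series, chosen by their labels as activated or unactivated. They form 4 groups of 3 cultures: activated WT clone, activated parental WT, unactivated WT clone and unactivated parental WT, all grown for 48 h. CH12 is a mouse B lymphoma line. The WT clone is, by its label, a single clonal line, and neither wild-type line carries the ZMYND8 knockout of the series' other lines. By the labels the 3 cultures of each group are biological repeats; they do not name the activating stimulus, and p-values measure the spread between these cultures. Ribosome-depleted total RNA was sequenced, and the authors deposited estimated counts for 171152 targets, of which 49745 are numbered genomic regions.

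CH12 cells carry IgM and switch to IgA after stimulation, and in common use the line is stimulated through CD40 together with interleukin-4 and TGF-beta. CD40 signals through NF-kB, interleukin receptors through Janus kinases and STAT factors, and TGF-beta receptors through SMAD factors. Class switching needs transcription through the switch regions of the immunoglobulin heavy chain (Igh) locus.

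A gene is described by its gene value, the count summed over the regions whose whole length falls in 1 RefSeq gene. Such a value is RNA from part of a gene, not its mature mRNA, and exon, intron and strand are not resolved, so an antisense transcript would be counted with its host. Levels are counts-per-million (CPM) values, relative to all counts of a library. Changes are log2 ratios of activated over unactivated cultures with their standard error, from a fit with the line as covariate. This error is the size of the change divided by the square root of the test's F statistic. It may understate the uncertainty where counts are very low. A gene was called if its p-value, adjusted by Benjamini-Hochberg, in edgeR's quasi-likelihood test was under 0.05 over all 4035 gene values tested, and "rose" or "fell" is used of called genes alone.

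The libraries held between 28987900 and 34065800 estimated counts. Among the B cell markers that have a region, Ebf1 was at 21.0 CPM in activated and 16.9 CPM in unactivated cultures, and Pax5 was at 12.1 CPM in activated and 6.18 CPM in unactivated cultures. Cd79a was near 0, at 0.189 CPM in activated and 0.162 CPM in unactivated cultures, and so was Cd22, at 0.020 CPM in activated and 0.109 CPM in unactivated cultures. Cd79b and Ms4a1 have no region wholly inside them. Markers of other cell types were low where they have a region. Regions exist for 5 of 12 T cell, 3 of 9 myeloid, 2 of 6 NK and 0 of 5 erythroid markers. Their values therefore cannot show whether such cells were present. The summed T cell markers lay between 0.85 and 1.35 CPM in activated and between 0.29 and 0.50 CPM in unactivated cultures. Bcl11b was at 0 throughout. The summed stromal and endothelial markers lay between 1.00 and 1.91 CPM in activated and between 0.39 and 1.05 CPM in unactivated cultures, with Col1a1 and Pdgfra at 0. The unactivated cultures parental WT replicate 3 and WT clone replicate 2 stood apart. They had 1.20% and 1.14% of their counts on regions inside genes, against 0.778% to 0.885% in the other 4 unactivated cultures. Replicate pairs that include one of them had chi-square values of 60.8 to 84.6 per degree of freedom, against 14.2 to 32.1 in the other pairs.

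Activation raised 605 gene values (15.0% of those tested) and lowered 192 (4.76%), together 19.8%. The median over all gene values was 0.18. Scaled over the gene values alone, the median was -0.025 and the split became 453 higher and 411 lower, so small changes depend on the scale. Without the 2 unactivated cultures that stand apart, 966 were higher and 192 lower. Of the calls, 74 were over 4-fold higher and 16 over 4-fold lower. All 797 calls had the same sign in both lines, which calling over both lines together favours. In 330 higher and 93 lower calls the 6 activated cultures did not overlap the 6 unactivated ones, where 10.8% of all gene values did not overlap.

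**Figure D1:**
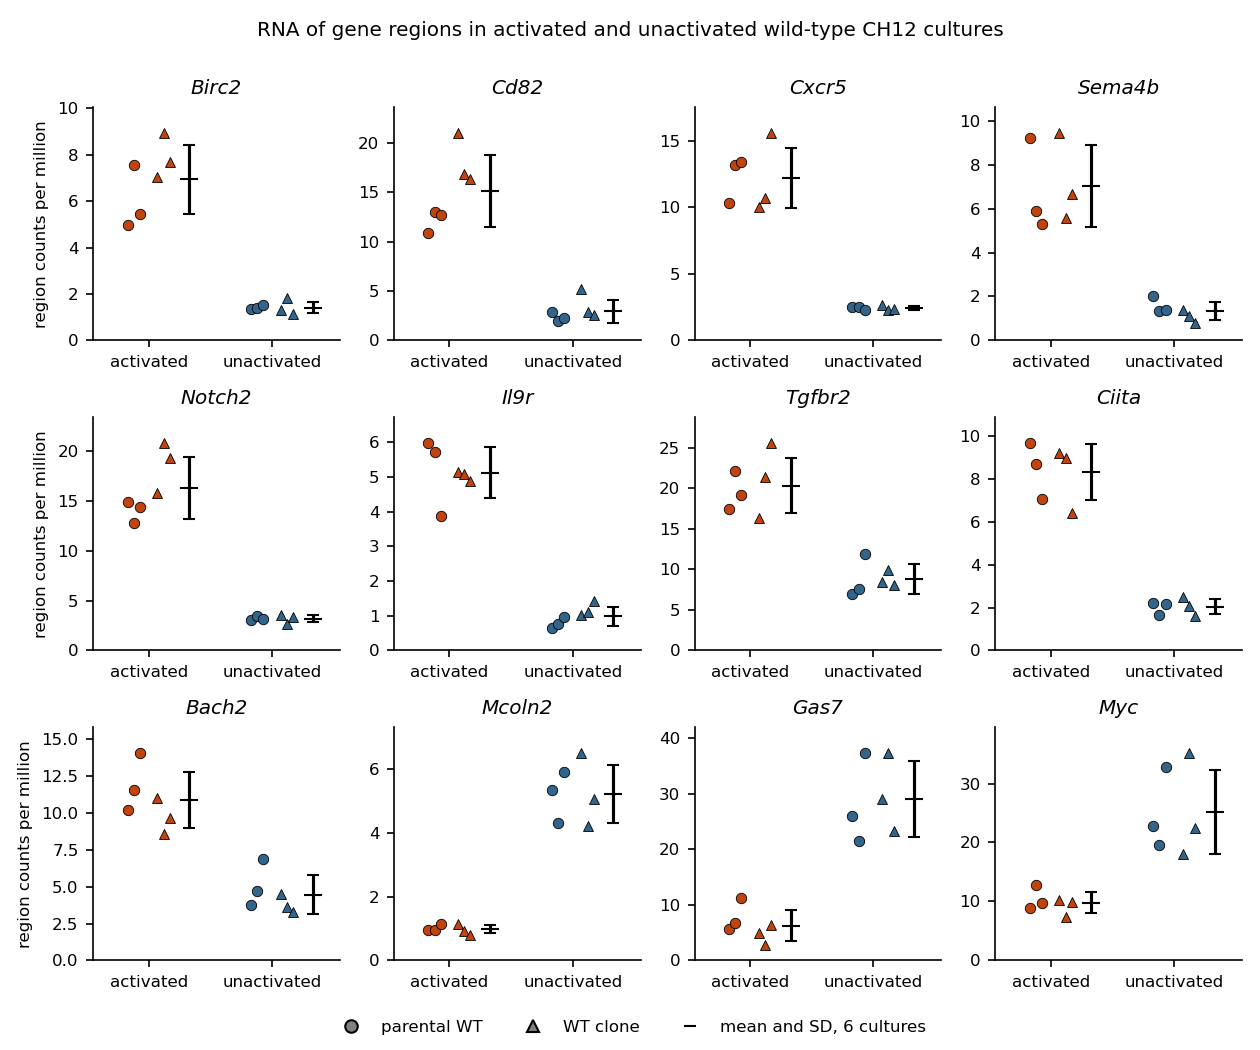
CPM of the regions inside 12 genes (vertical axes, each starting at 0) in activated and unactivated cultures of parental WT (circles) and the WT clone (triangles), with the mean and SD over 6 cultures at the right of each set. For all 12 genes the activated cultures lie on one side of the unactivated ones; Notch2 was at 12.8 to 20.8 CPM in activated and 2.60 to 3.53 CPM in unactivated cultures.

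Genes of the NF-kB and CD40 list were mostly higher after activation. Of 21 tested members 14 rose and 1 fell (71.4% called, against 19.8% of all gene values). The median change was 1.02, or 0.80 when scaled over gene values alone. Members of this and the other lists were chosen with earlier results of these data known. Birc2, a ubiquitin ligase that restrains the alternative NF-kB pathway, lay between 4.98 and 8.94 CPM (median 7.30) in activated and between 1.12 and 1.81 CPM (median 1.37) in unactivated cultures. The groups did not overlap, and the change was 2.28 ± 0.19 (adjusted p = 8.85e-09). Cd82, a tetraspanin of the cell surface, lay between 10.9 and 21.0 CPM (median 14.7) in activated and between 1.91 and 5.19 CPM (median 2.72) in unactivated cultures, a change of 2.36 ± 0.20 (adjusted p = 1.26e-08). For Fas, the death receptor, the range was 1.73 to 3.29 CPM in activated and 0.311 to 0.792 CPM in unactivated cultures, a change of 2.06 ± 0.22.

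The inhibitor Nfkbie (IkB epsilon) rose by 1.88, to 1.79 CPM in activated cultures against 0.48 CPM in unactivated ones. The NF-kB precursors Nfkb1 and Nfkb2 rose by 0.97 and 0.88, Map3k14, the kinase of the alternative pathway, by 0.71, and Cd40 itself by 1.44. The survival genes Bcl2a1b, Bcl2l1 and Cflar rose by 1.91, 1.16 and 1.16, and the costimulatory ligand Cd80 by 1.22. Bcl2a1b belongs to a family of near-identical copies, so reads may be split among them. Birc3, the close relative of Birc2, moved the other way and fell by 0.57. Rel (0.19), Relb (0.49) and Cd86 (0.19) were not called.

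RefSeq promoters of 300 bases (250 before to 50 after a start, GRCm38.p6) were searched on both strands for a kappa B consensus because these genes rose together. Of 12 risers of the list with a promoter in the table, Nfkbie, Nfkb2, Tank and Bcl2l1 hold it. Among all genes called higher 14.0% hold it, among those called lower 13.7%, among all tested 14.1%, and among all RefSeq promoters given here 9.55%. The AP-1 letters TGANTCA stand in 6 of the 12 (Bcl2a1b, Cd80, Fas, Nfkb2, Nfkbie and Tank), in 9.65% of genes called higher, 8.22% of those called lower, 6.999% of all tested and 8.97% of all promoters. The E box CACGTG stands in 7.68% of genes called higher, 13.0% of those called lower, 11.1% of all tested and 8.09% of all promoters. The STAT6 motif, TTC and GAA with 4 bases between them, stands in 8.11% of genes called higher, 8.90% of those called lower, 7.25% of all tested and 8.01% of all promoters. Motifs were searched apart, so matches of different motifs may overlap. Shares of called or tested genes count genes, some of which have several promoters. The share of all promoters counts single promoters, so it is not comparable with them. These shares describe letters in promoters, not binding. A promoter of each of the 4 genes is printed with the kappa B match in capitals, to show where it lies; that of Nfkb2 holds 3 matches, of which a pair overlaps. Nfkbie lies at chr17:45555450-45555749 and Nfkb2 at chr19:46304487-46304786, both on the plus strand. Tank lies at chr2:61592847-61593146 on the plus strand and Bcl2l1 at chr2:152830668-152830967 on the minus strand.
Nfkbie: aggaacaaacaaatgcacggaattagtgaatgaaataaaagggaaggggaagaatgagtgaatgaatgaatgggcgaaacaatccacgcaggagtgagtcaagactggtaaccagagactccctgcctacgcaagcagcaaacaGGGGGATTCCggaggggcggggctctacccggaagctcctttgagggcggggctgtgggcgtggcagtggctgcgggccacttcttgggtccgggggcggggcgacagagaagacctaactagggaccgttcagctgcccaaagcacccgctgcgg
Nfkb2: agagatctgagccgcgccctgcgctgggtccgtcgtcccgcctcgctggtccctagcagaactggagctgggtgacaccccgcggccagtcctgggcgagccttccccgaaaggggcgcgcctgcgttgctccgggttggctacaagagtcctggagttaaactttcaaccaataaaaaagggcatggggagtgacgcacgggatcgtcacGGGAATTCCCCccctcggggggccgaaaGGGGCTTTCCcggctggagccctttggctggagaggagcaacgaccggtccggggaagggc
Tank: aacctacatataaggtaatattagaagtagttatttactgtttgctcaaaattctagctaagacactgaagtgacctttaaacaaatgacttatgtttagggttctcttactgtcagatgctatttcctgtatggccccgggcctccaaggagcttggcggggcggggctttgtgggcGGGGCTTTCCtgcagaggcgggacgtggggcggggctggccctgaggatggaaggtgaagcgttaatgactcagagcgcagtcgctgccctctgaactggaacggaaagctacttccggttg
Bcl2l1: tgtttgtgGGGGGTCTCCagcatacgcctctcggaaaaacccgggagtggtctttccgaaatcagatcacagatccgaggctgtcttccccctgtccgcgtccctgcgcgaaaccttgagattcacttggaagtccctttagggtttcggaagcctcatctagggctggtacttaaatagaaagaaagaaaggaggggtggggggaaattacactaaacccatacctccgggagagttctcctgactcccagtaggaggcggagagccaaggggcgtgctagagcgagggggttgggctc

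In the list of TGF-beta and SMAD genes, the receptors Tgfbr1 and Tgfbr2 and the inhibitors Smad7, Skil and Ski rose. Of 14 tested list members 7 rose and 1 fell (57.1% called, against 19.8% of all gene values). The median was 0.92 (0.72 when scaled over gene values alone). Tgfbr2, the ligand-binding receptor, lay between 16.3 and 25.6 CPM (median 20.3) in activated and between 6.93 and 11.9 CPM (median 8.29) in unactivated cultures. The groups did not overlap, and the change was 1.21 ± 0.18 (adjusted p = 3.49e-05). Its partner Tgfbr1 rose by 1.97, to 2.08 CPM against 0.54 CPM in unactivated cultures. Smad7, the inhibitory SMAD that receptors induce, lay between 1.34 and 2.18 CPM in activated and between 0.098 and 0.667 CPM in unactivated cultures, a change of 2.04 ± 0.25 (adjusted p = 3.28e-06). The corepressors Skil and Ski rose by 1.39 and 1.22 and the latent TGF-beta binding protein Ltbp1 by 1.23. Smad2, Smad3 and Smad4, which carry the signal, were at 0.03, 0.05 and 0.19 and were not called. Tgfbr3, Smad1, Smad5, Smad6, Smurf1 and Smurf2 did not pass the filter on low counts. The Runt factors went opposite ways: Runx3, a SMAD partner in IgA switching, rose by 0.98 (19.4 CPM in activated against 9.82 CPM in unactivated cultures) and Runx1 fell by 0.99 (1.83 CPM in activated against 3.65 CPM in unactivated cultures).

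Of 19 tested members of the list of interleukin receptors, JAK, STAT and SOCS genes 9 rose and 1 fell. This was 52.6% called, against 19.8% of all gene values. The median was 0.64, and 6 rose when scaled over gene values alone. Il9r, the receptor chain for interleukin-9, lay between 3.88 and 5.98 CPM (median 5.10) in activated and between 0.648 and 1.43 CPM (median 0.982) in unactivated cultures. Its change was 2.38 ± 0.19 (adjusted p = 6.64e-09), with no overlap of the groups. Jak2, a receptor-bound tyrosine kinase, lay between 2.24 and 3.66 CPM in activated and between 0.264 and 0.579 CPM in unactivated cultures, a change of 2.72 ± 0.22 (adjusted p = 6.10e-09). Jak1 rose by 0.64, Stat4 by 0.77, Stat5b by 0.78, Il21r by 0.95 and the AP-1 factor Batf by 0.87. Il10, the gene of an immunoregulatory cytokine, fell. It lay between 0 and 1.12 CPM (median 0.319) in activated and between 1.77 and 4.70 CPM (median 2.87) in unactivated cultures, a change of -3.15 ± 0.46 (adjusted p = 2.33e-04). The activated parental cultures had 0.543, 0.701 and 1.12 CPM of Il10 and the activated WT clone cultures 0.094, 0 and 0.029 CPM. Il4ra (0.44), Il2ra (0.30) and Stat6 (-0.68) were not called.

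Large changes were also found for the semaphorin receptor Plxnd1, the semaphorin Sema4b and the chemokine receptor Cxcr5. Of 19 tested members of the list of homing, semaphorin and motility genes 7 rose and 1 fell. This was 42.1% called, against 19.8% of all gene values. The median was 0.74, and without the 2 cultures that stand apart 10 rose. Plxnd1, a semaphorin receptor, lay between 3.33 and 4.88 CPM in activated and between 0.342 and 0.648 CPM in unactivated cultures, a change of 3.05 ± 0.20, or 8.26-fold (adjusted p = 5.60e-10). The membrane semaphorin Sema4b lay between 5.32 and 9.45 CPM in activated and between 0.778 and 2.01 CPM in unactivated cultures, a change of 2.41 ± 0.22 (adjusted p = 5.32e-08). Its relative Sema4d (CD100) rose by 1.79 ± 0.19. Plxnc1, the receptor of Sema7a, fell by 1.26 and Sema7a was at -0.27, not called.

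Cxcr5, the receptor that guides B cells into follicles, lies at chr9:44511787-44526444. It had between 10.0 and 15.6 CPM in activated and between 2.28 and 2.64 CPM in unactivated cultures, a change of 2.32 ± 0.18 (adjusted p = 3.14e-09). The chemokine receptor Ccr6 rose by 1.91 and the integrin chain Itga4 by 1.40, while Ccr7, the receptor for T zone chemokines, was at 0.20 and was not called.

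Of 15 tested genes of the Notch pathway 4 rose and none fell (26.7% called, against 19.8% of all gene values), with a median of 0.31. Scaled over gene values alone 4 rose and 2 fell, and without the 2 cultures that stand apart 6 rose. Notch2, the receptor that marginal zone B cells need, had a median of 15.3 CPM in activated and 3.22 CPM in unactivated cultures and a change of 2.35 ± 0.18 (adjusted p = 2.77e-09). Rbpj, the DNA-binding partner of Notch, rose by 1.04 ± 0.22, its coactivator Maml2 by 1.05 ± 0.22 and Notch1 by 1.02 ± 0.25. The activated and unactivated cultures overlapped for Rbpj and Maml2 and not for Notch1. Dtx1, a B cell target of Notch2, was at -0.84 and was not called.

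Of 7 tested genes of MHC class II presentation 4 rose and none fell (57.1% called, against 19.8% of all gene values). The median was 0.92 (0.68 when scaled over gene values alone). Ciita, the transactivator that class II genes depend on, lay between 6.41 and 9.70 CPM in activated and between 1.59 and 2.51 CPM in unactivated cultures. Its change was 2.03 ± 0.18 (adjusted p = 4.04e-08). The class II chains H2-Aa and H2-Eb1 rose by 1.01 ± 0.18 and 0.92 ± 0.20, and the protease Ctsh by 1.12 ± 0.23. H2-Ab1 (0.41), H2-DMa (0.03) and Ctss (0.33) were not called.

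Transcription factors of B cell identity divided by direction. Of 15 tested members 5 rose and 4 fell, with a median of 0.35 (0.15, with 4 up and 6 down, when scaled over gene values alone). Bach2, a transcriptional repressor of plasma cell formation, lay between 8.55 and 14.1 CPM in activated and between 3.27 and 6.89 CPM in unactivated cultures, a change of 1.29 ± 0.18 (adjusted p = 1.69e-05). Pax5 rose by 0.97, Pou2f2 by 0.92, Spib by 0.69 and the adaptor Blnk by 0.99. Spi1 (PU.1) fell by 1.05, the kinase Blk by 1.47, Cd24a by 1.02 and Ikzf1 (Ikaros) by 1.08. Of 8 tested plasma cell genes 25.0% were called, against 19.8% of all gene values. Irf4 rose by 0.79 ± 0.23 and Prdm1 (Blimp-1), which drives plasma cells, fell by 1.26 ± 0.28. Both overlapped between the states, and Irf4 lost its call when scaled over gene values alone.

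Downstream of the B cell receptor 8 of 26 tested genes rose and none fell (30.8% called, against 19.8% of all gene values). The median was 0.38, or 0.19 when scaled over gene values alone. Without the 2 cultures that stand apart the count was 17 and the median 0.87. Cblb, a ubiquitin ligase that limits receptor signals, lay between 6.89 and 12.6 CPM in activated and between 1.91 and 4.41 CPM in unactivated cultures, a change of 1.59 ± 0.22 (adjusted p = 1.18e-05). Rasgrp3 rose by 1.08, Pik3cd by 1.04, Prkcb by 0.95 and Syk by 0.91. Lyn (-0.34) and Btk (0.50) were not called.

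**Figure D2:**
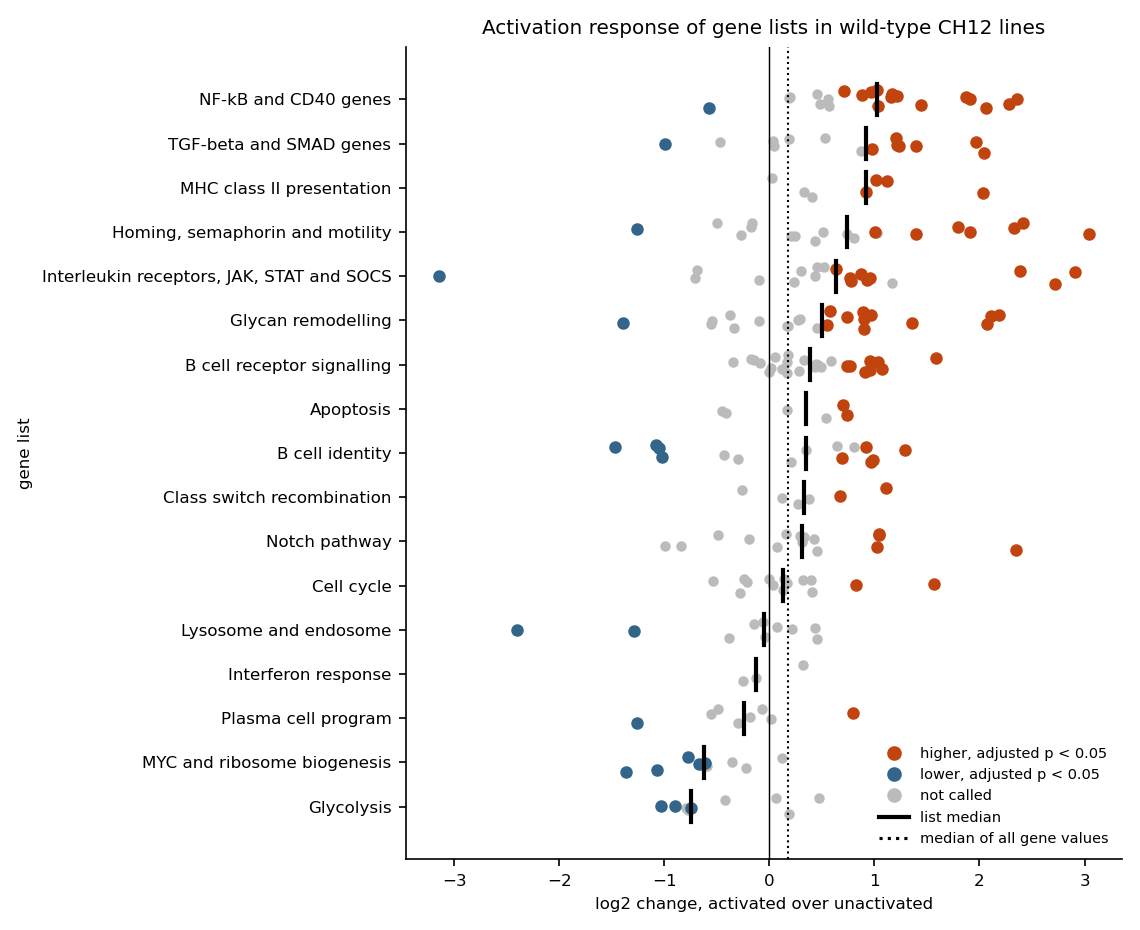
Log2 change between activated and unactivated cultures (horizontal axis) of each tested member of 17 gene lists (rows, ordered by median). Orange points were called higher, blue points lower and grey points not called; the black bar is the list's median and the dotted line the median of all gene values, 0.18. The NF-kB and CD40 list stands at the top with a median of 1.02 and glycolysis at the bottom with -0.75.

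Among enzymes that build and trim glycans 11 of 22 tested members rose and 1 fell (54.5% called, against 19.8% of all gene values). The median was 0.50. Scaled over gene values alone 9 rose and 5 fell, with a median of 0.27, and without the 2 cultures that stand apart the median was 0.75. Xylt1, which starts proteoglycan chains, lay between 6.26 and 15.4 CPM in activated and between 1.34 and 3.68 CPM in unactivated cultures, a change of 2.19 ± 0.26 (adjusted p = 3.41e-06). B4galt1, a galactosyltransferase, rose by 2.11 ± 0.24 and St8sia1, the enzyme that makes disialogangliosides, by 2.07 ± 0.24. Mgat5, Man1a and Galnt2 rose by 0.96, 0.91 and 0.89. The member that fell was Cmah, the hydroxylase that makes N-glycolylneuraminic acid, at 1.48 to 2.35 CPM in activated and 3.58 to 6.35 CPM in unactivated cultures (-1.39 ± 0.18, adjusted p = 4.11e-06). St6gal1, the sialyltransferase that makes CD22 ligands, was at -0.33 and was not called.

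In the list of MYC and ribosome assembly genes only 10 of 35 members have a region. Of these 10, all tested, 5 fell and none rose (50.0% called, against 19.8% of all gene values). The median was -0.62 (-0.84, with 7 down, when scaled over gene values alone). Myc, the growth transcription factor, lay between 7.31 and 12.8 CPM (median 9.79) in activated and between 17.99 and 35.2 CPM (median 22.6) in unactivated cultures. The groups did not overlap, and the change was -1.36 ± 0.20 (adjusted p = 2.50e-05). Gtpbp4, Wdr43, Ddx21 and Gnl3, which act in ribosome assembly, fell by 1.07, 0.77, 0.67 and 0.61. The states overlapped for Gtpbp4 and Wdr43 and not for Gnl3. Myc, Gtpbp4, Wdr43 and Gnl3 have only 1 region each. Wdr43 and Gnl3 lost their calls in either line alone, and Gtpbp4 in parental WT alone. Of 9 tested glycolysis genes 3 fell and none rose (33.3% called, against 19.8% of all gene values), with a median of -0.75. These were the lactate transporter Slc16a1 (-1.03 ± 0.31), the glucose transporter Slc2a1 (-0.90 ± 0.32) and the pyruvate kinase Pkm (-0.75 ± 0.19). Without the 2 cultures that stand apart, Slc16a1 and Slc2a1 were no longer called, which left Pkm, and Slc2a1 had an adjusted p of 0.0485 with all cultures. Leaving out any 1 of 10 libraries ended the Slc2a1 call, at changes of -0.98 to -0.53, the smallest of them without unactivated parental WT replicate 3; the exceptions were unactivated parental WT replicates 1 and 2. Slc16a1, still at -0.995 to -0.85, was no longer called without unactivated parental WT replicate 3, without unactivated WT clone replicate 1 or 3, or without any 1 of the activated WT clone cultures.

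Of 10 tested lysosomal and endosomal genes 2 fell and none rose (20.0% called, near the 19.8% of all gene values), with a median of -0.05. Mcoln2, an endolysosomal cation channel, lay between 0.804 and 1.15 CPM in activated and between 4.19 and 6.50 CPM in unactivated cultures, a change of -2.40 ± 0.18 (adjusted p = 2.63e-09). The proton pump subunit Atp6v0e2 fell by 1.29 ± 0.21. Outside the lists, Gas7, an actin-binding protein known from neurons, fell by 2.25 ± 0.25, to a median of 6.05 CPM in activated against 27.5 CPM in unactivated cultures. The procollagen protease Adamts14 fell by 1.85 ± 0.19, the ribonuclease Zc3h12d by 1.43 ± 0.21, Plek, a protein kinase C substrate, by 1.21 ± 0.21, and Cd274, the checkpoint ligand PD-L1, by 1.15 ± 0.20. Nudt4, Gng7 and Rgs13, a regulator of G protein signalling, fell by 1.13, 1.06 and 1.04. The states overlapped for Gng7 and Rgs13 and for none of the other genes of this paragraph that fell. Also outside the lists, Zfp710 rose by 2.19 ± 0.23, Dkk3, a Dickkopf family protein, by 2.04 ± 0.19, Pakap by 2.00 ± 0.18 and Armc9 by 1.93 ± 0.18.

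In the cell cycle list 2 of 14 tested genes rose and none fell (14.3% called, against 19.8% of all gene values). The median was 0.13 and became -0.08 when scaled over gene values alone. Ccnd2 (cyclin D2), with 0.846 to 1.92 CPM in activated and 0.356 to 0.603 CPM in unactivated cultures, rose by 1.57 ± 0.23, and its kinase Cdk6 by 0.83 ± 0.24. Cdk6 was no longer called without activated parental WT replicate 3 (0.71) or activated WT clone replicate 3 (0.68). In the apoptosis list Bcl2 and its antagonist Bcl2l11 rose by 0.70 and 0.74, 2 of 6 tested genes (33.3%, against 19.8% of all gene values). Both lost their calls when scaled over gene values alone. Bcl2 also lost its call without activated parental WT replicate 3 or activated WT clone replicate 3. Bcl2l11 lost its call without unactivated WT clone replicate 2 or 3, activated WT clone replicate 1, unactivated parental WT replicate 2 or activated parental WT replicate 1, at 0.60 to 0.70. None of the 3 tested genes of the interferon response list was called, against 19.8% of all gene values. Among markers of other lineages, Tcf7, a transcription factor of T cells, rose by 3.46 ± 0.31, to between 0.549 and 1.15 CPM in activated against 0.0311 to 0.145 CPM in unactivated cultures. Lck (0.218 CPM in activated and 0.262 CPM in unactivated cultures) and Thy1 (0.035 CPM in activated and 0.022 CPM in unactivated cultures) did not pass the filter on low counts. Pdgfrb, a stromal growth factor receptor, rose by 2.53 ± 0.36, to a median of 1.01 CPM in activated against 0.144 CPM in unactivated cultures.

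Of the class switch list 6 genes were tested and 2 rose (33.3% called, against 19.8% of all gene values). Of these, Zmynd8, the gene named in the labels of the series' knockout lines, rose by 0.67 ± 0.18 in the wild-type lines. That call was lost when scaled over gene values alone. RNA of Zmynd8 regions was also counted in the knockout lines. It was at 3.48 ± 0.671 CPM in activated and 1.90 ± 0.397 CPM in unactivated knockout cultures (SD, n = 6 each). In the same fit the wild-type cultures were at 2.43 ± 0.435 CPM when activated and 1.52 ± 0.262 CPM when unactivated. What the knockout altered in the gene was not tested. Among the Igh elements given as separate targets, tested with all 54788 targets that passed the filter (8.76% called higher), the transcript of the mu enhancer had a mean of 58.0 ± 5.73 CPM in activated and 34.8 ± 6.50 CPM in unactivated cultures (SD, n = 6 each), a log2 change of 0.74 ± 0.13 (adjusted p = 0.00182). The switch alpha intron, whose transcription comes before switching to IgA, was at 2.33 ± 0.537 CPM in activated and 0.903 ± 0.195 CPM in unactivated cultures, a change of 1.36 ± 0.22 (adjusted p = 0.00121). The 3' enhancer element hs3a was at 0.840 ± 0.209 CPM in activated and 0.345 ± 0.0451 CPM in unactivated cultures, a change of 1.27 ± 0.20 (adjusted p = 0.00119). Its near-identical partner hs3b had 2 counts in activated WT clone and 0 in activated parental cultures, and 4 in unactivated WT clone and 3 in unactivated parental cultures, and the counting model may move reads between the pair. The mu switch intron and hs12 had 0 counts in all 12 libraries. Whether reads can be assigned to these targets was not tested, so these counts do not show that the RNA was absent.

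Numbered regions outside genes in the Igh constant locus, picked for their place in the locus after their values were seen, are given here. The region chr12:113314446-113315182 was at 10.6 ± 2.88 CPM in activated and 3.96 ± 1.18 CPM in unactivated cultures (SD, n = 6 each), a change of 1.45 ± 0.24 (adjusted p = 0.00153). The region chr12:113331796-113341015, 1273 bases from Ighg1, was at 0.584 ± 0.275 CPM in activated and 0.0438 ± 0.0491 CPM in unactivated cultures, a change of 3.63 ± 0.69 (adjusted p = 0.00355). Neither overlapped between the states, while chr12:113362281-113362926 near Ighg3 was at 0.428 CPM in activated and 0.429 CPM in unactivated cultures. The 4 tested regions from 113215821 to 113250566, between Tmem121 and Igha, had changes of -0.12 to 0.93 and none was called in this fit of the 12 wild-type libraries. In the 4-group fit the highest of them, chr12:113235821-113237901, was at 2.19 ± 0.57 in the WT clone (edgeR's quasi-likelihood test, adjusted p = 0.0430). In parental WT it was at -0.26 ± 0.54. The difference between the lines was not called.

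Regions of the same gene were also compared with each other. Of 797 called genes 207 have only 1 region. Of the 175 called genes with at least 3 tested regions, 154 had all regions of the same sign, 52 had only 1 region called on its own and 24 had none. None of these 175 had regions called in both directions. Of 5768 single regions inside genes 13.2% were called higher and 3.48% lower, with p-values adjusted over all 54788 targets and so not comparable with the shares of gene values. In B4galt1 all 6 tested regions rose, by 1.68 to 2.47, in Cblb all 9, by 1.34 to 2.83, and in Xylt1 9 of 10, with regions at 1.36 to 3.56. In Ciita all 4 rose, by 1.49 to 2.32, and in Plxnc1 all 5 fell, with changes of -2.02 to -0.77.

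The value of Notch2 rested on the region chr3:98050087-98050750 within the gene span of 98013538 to 98150367, which held 91.3% of the gene's counts and rose by 2.74 ± 0.18, to 15.4 CPM in activated against 2.28 CPM in unactivated cultures. The other tested Notch2 region, chr3:98099192-98100677, was at 0.309 CPM in activated and 0.269 CPM in unactivated cultures and not called (0.21 ± 0.38). The fall of Ikzf1 rested on chr11:11691443-11698077, the tested region nearest the low-coordinate end of the gene, with 67.3% of its counts and a change of -1.65 ± 0.15 (18.1 CPM in activated against 56.6 CPM in unactivated cultures). The other 8 Ikzf1 regions had changes of -0.16 to 0.36, and none was called. In Gas7 the 3 regions between 67562525 and 67580988 on chromosome 11 fell by 2.45, 2.76 and 2.19, while the 2 tested regions at lower coordinates were at 0.17 and 0.37, not called. In Mcoln2 3 regions fell by 1.86 to 4.21.

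**Figure D3:**
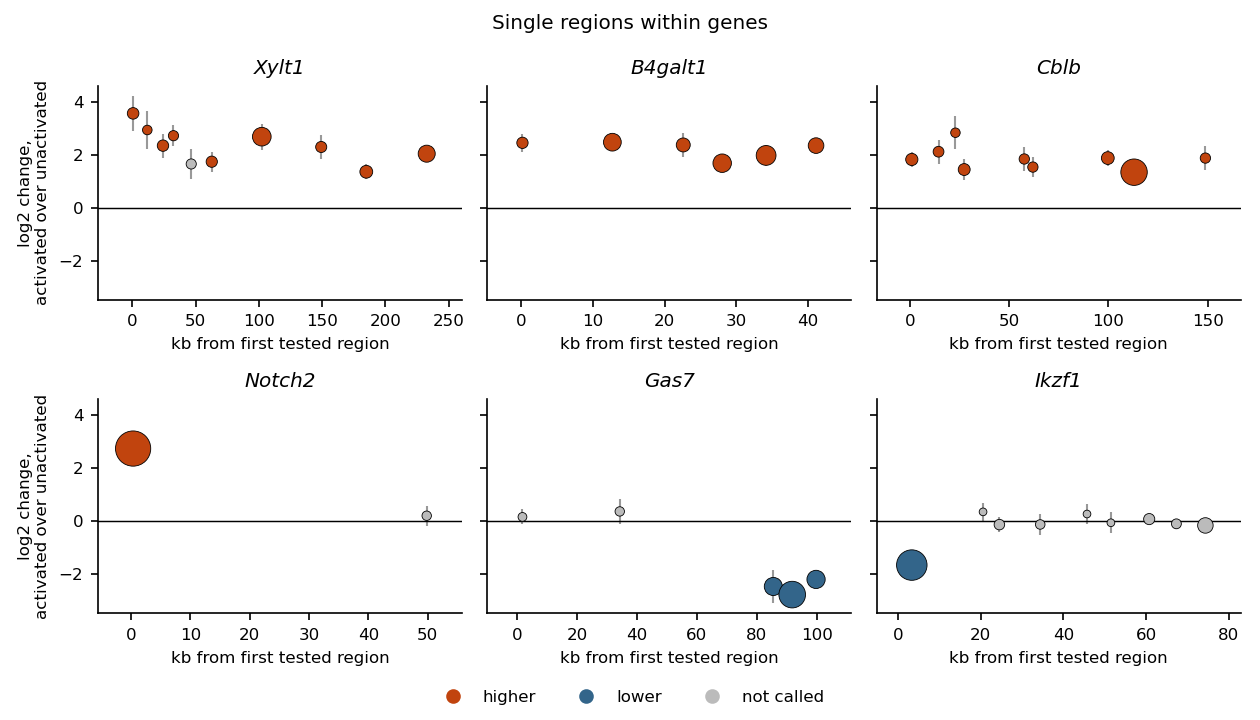
Log2 change of each tested region (points, with standard error bars) against its distance in kilobases from the first tested region along the chromosome, for 6 genes; point area grows with the region's share of the gene's counts. Regions of Xylt1, B4galt1 and Cblb rose along the gene, while the Notch2 rise and the Ikzf1 fall sit on 1 region each and the Gas7 fall on 3.

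All 797 called genes changed in the same direction in the WT clone and in parental WT. They were called over both lines together, which favours genes of equal sign, so this is no separate evidence of agreement. No tested gene or region outside genes differed in response between the lines beyond the threshold with the count filter. With no low-count filter 6 of 9730 gene values were called higher and 14 lower in the WT clone response. The difference of the responses (WT clone minus parental WT) was called for 0 of 4035 gene values (0.00%) and 0 of 2139 regions outside genes by edgeR's quasi-likelihood test, with 84 and 44 at an unadjusted p under 0.05. DESeq2 also called 0 of each, with 55 and 32 at that p. In the 4-group fit, 199 genes were called higher and 50 lower in each line alone, and 0 were called opposite ways; in the WT clone 7.39% were called higher and 2.01% lower, and in parental WT 6.84% were higher and 1.83% lower. Named genes with an unadjusted p under 0.05 for the difference were Il10, Blk, Cd274 and Slc16a1. Il10 changed by -5.62 ± 0.52 in the WT clone and -2.27 ± 0.34 in parental WT, with an adjusted p of 0.281 for the difference, the smallest of that fit. The activated WT clone cultures had hardly any Il10 counts, so the size of that change and its standard error are poorly determined. Blk changed by -2.20 ± 0.28 in the WT clone and -0.83 ± 0.26 in parental WT, Cd274 by -1.57 ± 0.26 in the WT clone and -0.73 ± 0.26 in parental WT, and Slc16a1 by -1.80 ± 0.40 in the WT clone and -0.37 ± 0.37 in parental WT. All 4 changes were larger in the clone, and none of these differences held after adjustment.

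**Figure D4:**
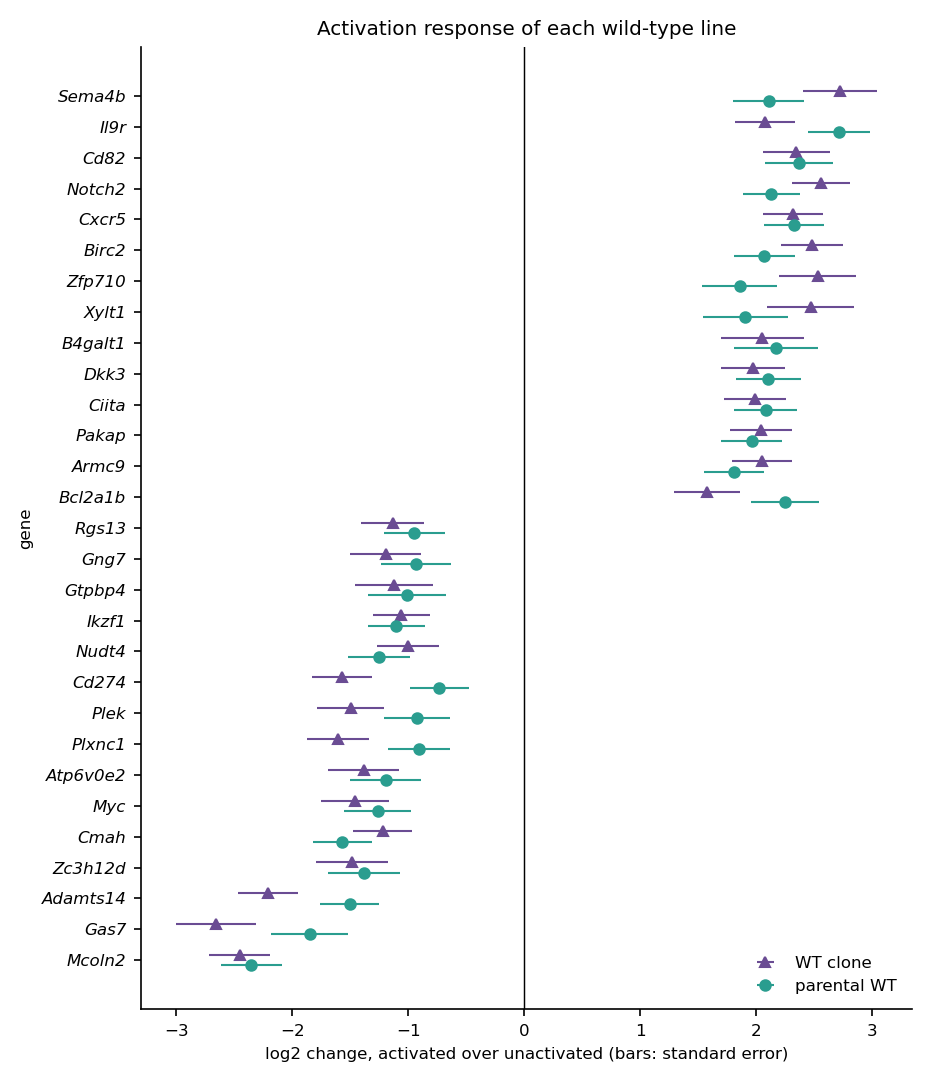
Log2 change between activated and unactivated cultures with its standard error (horizontal axis) in the WT clone (purple triangles) and parental WT (green circles), for genes with the highest and lowest changes at 5 CPM or more. The genes were chosen among those with the same sign in both lines, so that agreement is not a result. Cd274 was at -1.57 in the WT clone and -0.73 in parental WT.

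Regions outside annotated genes also responded. Of 2139 tested, 204 rose (9.54%) and 93 fell (4.35%). By distance from the nearest RefSeq gene, 122 rose and 61 fell of 1367 within 10 kb, 66 and 28 of 646 at 10 to 50 kb, and 16 and 4 of 126 beyond 50 kb. The region chr14:64037349-64038170 (GRCm38), 3843 bases from Rp1l1, had a mean of 10.9 ± 2.37 CPM in activated and 0.370 ± 0.0950 CPM in unactivated cultures (SD, n = 6 each), a 29.4-fold difference (4.88 ± 0.23, adjusted p = 4.35e-07). Its activated cultures had 8.54 to 14.3 CPM and its unactivated cultures 0.229 to 0.508 CPM.

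The region chr4:149854000-149858088, 38195 bases from Spsb1, which encodes an adaptor of a ubiquitin ligase, was at 7.67 ± 2.28 CPM in activated and 0.544 ± 0.180 CPM in unactivated cultures, a change of 3.85 ± 0.28. The gene value of Spsb1 rose by 2.77. The region chr3:21982899-21985394, whose nearest coding gene is the corepressor component Tbl1xr1, rose by 3.40 ± 0.32, chr6:59312736-59316524 near Gprin3 by 3.37 ± 0.42 and chr10:96263538-96266896 near Gm40747 by 3.06 ± 0.30. All of these had a higher value in every activated culture than in any unactivated one. Among those that fell, chr9:52287145-52289791 was at 0.790 ± 0.164 CPM in activated and 2.99 ± 0.597 CPM in unactivated cultures (-1.91 ± 0.18). The region chr2:44956046-44957914, 25598 bases from Zeb2, fell by 1.84 ± 0.29, and chr17:33401665-33402452 near Zfp101 by 1.67 ± 0.27. A pair of regions near Scd1, the stearoyl-CoA desaturase gene, fell: chr19:44376223-44379570 by 1.57 ± 0.23 and chr19:44382657-44389358 by 1.44 ± 0.17.

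Some responding regions shared a nearest coding gene. The antiproliferative gene Btg1 had 4 regions that rose by 1.89 to 3.80, at 5388 to 241772 bases, and Tbl1xr1 had 3 that rose by 1.54 to 3.40. Runx3 had 2 that rose by 1.83 and 4.14, at 39394 and 46553 bases, and the gene value of Runx3 rose too. Bcl2a1b had 2 that rose, at 808 and 1400 bases from the gene. Around Myc 2 regions fell, of which 1 by 2.21 at 296311 bases, and 1 rose by 0.90 at 742956 bases. Of 100 regions that rose and whose nearest coding gene has a tested gene value, 50 had that gene called higher and 1 lower. Of 41 that fell, 2 had it higher and 12 lower. Among 698 regions not called, the gene was higher for 21.8% and lower for 8.31%. Regions and gene values come from the same libraries, the regions near one gene are not independent, and a region close to a gene may hold its unannotated end.

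**Figure D5:**
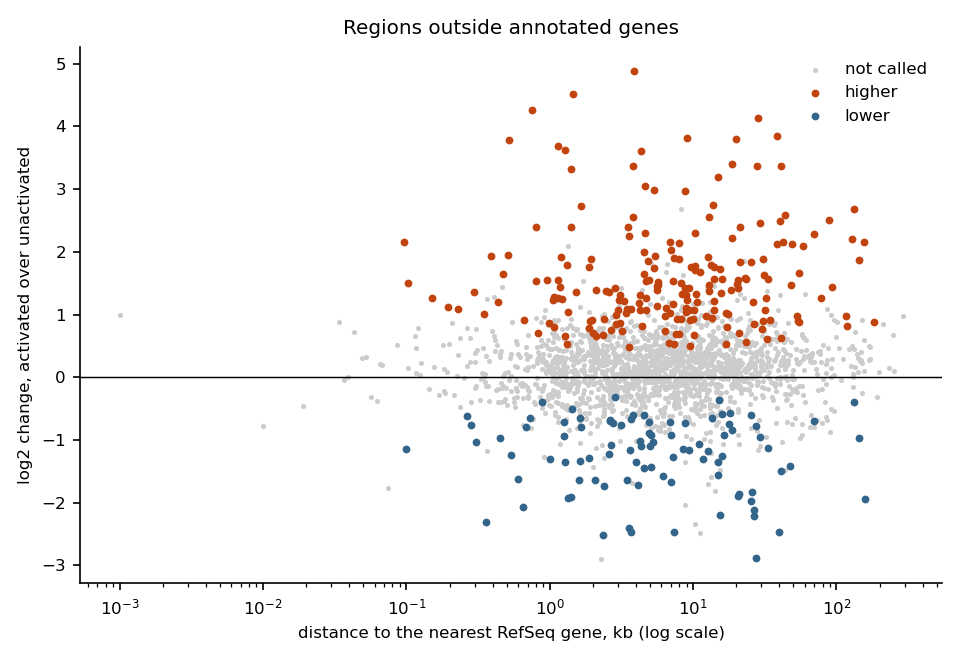
Log2 change between activated and unactivated cultures (vertical axis) of 2139 regions outside genes against the distance to the nearest RefSeq gene in kilobases (log scale). Orange points were called higher (204), blue points lower (93) and grey points not called; called regions occur in each distance class.

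The share of a library's counts on all numbered regions was 5.18 ± 0.218% in activated and 4.43 ± 0.335% in unactivated cultures (SD, n = 6 each; exact permutation of state within line, two-sided p = 0.010, adjusted p = 0.020 over 4 shares, smallest p possible 0.005). The difference lay in regions across gene ends, with 3.83 ± 0.231% in activated and 3.17 ± 0.308% in unactivated cultures (exact permutation p = 0.005, adjusted p = 0.020). The largest region, at the 7SL RNA gene Rn7s2, accounted for most of it: without that region the share across gene ends was 0.673% in activated and 0.669% in unactivated cultures (exact permutation p = 0.955). For regions inside genes the share was 1.02 ± 0.0653% in activated and 0.936 ± 0.188% in unactivated cultures (exact permutation p = 0.375), and for regions outside genes 0.328 ± 0.0285% in activated and 0.321 ± 0.106% in unactivated cultures (exact permutation p = 0.915).

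The 12 libraries of the ZMYND8 knockout lines KO1 and KO2, activated and unactivated, allow the size of the response to be compared between KO and WT lines. In a fit of all 24 RNA libraries the response differed between KO and WT lines for 34 of 4510 gene values (0.754%), 25 with a positive (0.554%) and 9 with a negative difference, and for 7 of the 68 genes named here. The named genes were chosen on the WT libraries that also enter this difference. Adamts14 changed by -0.49 in the KO lines against -1.86 in the WT lines: it was at 25.5 ± 6.65 CPM in activated and 35.3 ± 3.31 CPM in unactivated KO cultures, against 5.91 ± 1.86 CPM in activated and 20.7 ± 2.76 CPM in unactivated WT cultures (SD, n = 6 each). Il10 changed by -1.28 in the KO lines against -3.94 in the WT lines, Gas7 by -0.95 in the KO lines against -2.25 in the WT lines, and Blk by -0.47 in the KO lines against -1.51 in the WT lines. For Il10 the WT value averages unequal responses of the WT clone (-5.62) and parental WT (-2.27). It therefore differs from the -3.15 of the fit with line as covariate. Atp6v0e2 was at -0.19 in the KO lines and -1.29 in the WT lines. Its KO cultures were at 3.41 ± 1.38 CPM when activated and 3.67 ± 0.753 CPM when unactivated. The estimates of all 7 genes had the same sign in the KO and the WT lines. The response of the KO lines alone was not tested. Dkk3 changed by 3.05 in the KO lines and 2.04 in the WT lines, and Zfp710 by 1.10 in the KO lines and 2.20 in the WT lines.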

How the data were processed

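Stranded, single-end total RNA libraries of 12 wild-type CH12 cultures were analysed. Per the submitters' processing notes kallisto 0.43.0, DESeq2 and build GRCm38.p5 were used; strand setting and annotation release were not stated there. Each library has a deposited table of expected counts, which are kallisto's estimated, unnormalized counts per target; these were rounded. Kallisto shares reads between similar targets, and a region overlapping a transcript can lose reads to it. Of 49745 regions, 26591 lie inside 1 RefSeq gene (GRCm38.p6) and give 10750 gene values, 18754 lie outside genes and 4400 cross gene ends or lie in several; 12 whole-locus entries were left out.

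Library sizes were total counts with trimmed mean of M values factors over all targets that passed edgeR's filterByExpr by group (minimum count 10). edgeR 4.0.16 (limma 3.58.1, R 4.3.3) fitted line and state; Benjamini-Hochberg adjusted p-values under 0.05 over all gene values, or over all targets for regions, were called. The line difference used 4 group means, the KO difference 8 group means of 24 libraries. Shares were tested by exact permutation of state within line (400 arrangements). On simulated data for the activation comparison 3832 gene values were tested. Of those changed, 85.9% at 2-fold and 98.3% at 4-fold were called, with 3.12% false calls. For all targets, 51462 tested, the shares were 37.9%, 77.3% and 5.00%. The changed gene values or targets were drawn only from those with at least the median mean count, so detection at lower counts was not tested. Each gene value or target was simulated independently, with no line difference and no cultures that stand apart. These shares therefore need not hold for the real libraries.

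Named genes were the 15 highest and 15 lowest log2 changes of called genes that reached 5 CPM in a state and changed the same way in both lines, Gm and Rik names excepted, plus up to 4 called members of each list with the smallest p. Named regions were the 5 highest and 5 lowest with at least 2 CPM. Some selected genes are not reported here. The members and the 22 lists were chosen with earlier results of these data known. Promoters are RefSeq's. No replicate was counted as a repeat of another. Alternatives were DESeq2 1.42.0, relative log expression scaling, testing without the count filter, 24 libraries in one model, a replicate block, 4 group means, no line term, each line alone, scaling over gene values, and each library left out. Leaving out the 2 cultures that stand apart was chosen after seeing the data.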

Additional observations from a re-analysis of the deposited data

Results flagged for a closer look

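The results listed here were picked out among the 68 named genes because the activation response differed between the ZMYND8 KO lines and the WT lines. The test was of the difference itself, KO response minus WT response, in edgeR's quasi-likelihood fit of 24 libraries (adjusted p under 0.05 over 4510 gene values). Over all gene values 34 were called. The named genes were chosen on WT libraries that enter this difference, which can favour a smaller response in the KO lines. The difference was 2.66 ± 0.44 for Il10 (adjusted p = 0.0021), 1.36 ± 0.21 for Adamts14 (adjusted p = 5.2e-04), 1.30 ± 0.28 for Gas7 (adjusted p = 0.0131) and 1.04 ± 0.24 for Blk (adjusted p = 0.0215). It was 1.10 ± 0.27 for Atp6v0e2 (adjusted p = 0.0397) and 1.01 ± 0.25 for Dkk3 and -1.10 ± 0.27 for Zfp710 (adjusted p = 0.0408 for each). For Il10 the mean was 1.72 ± 0.676 CPM in activated and 4.24 ± 1.42 CPM in unactivated KO cultures, against 0.420 ± 0.457 CPM in activated and 3.01 ± 1.08 CPM in unactivated WT cultures (SD, n = 6 each). For Gas7 the unactivated KO cultures were at 10.5 ± 0.956 CPM, against 29.4 ± 6.81 CPM in unactivated WT cultures, while the values after activation were 5.43 ± 1.34 CPM in activated KO cultures, against 6.36 ± 2.80 CPM in activated WT cultures. The KO lines are 2 and the WT lines 2, so differences between lines unrelated to ZMYND8 cannot be told apart from it.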

How the results depend on the processing

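Of 81 named results 51 kept their call under every alternative that was run, none reversed, and 73 calls were lost, 25 of them on leaving out 1 library. The lost calls lay mostly in fits of 1 line, with 26 in parental WT alone and 14 in the WT clone alone, where 6 libraries are left. Parental WT alone gave 241 genes higher and 51 lower and 40 regions outside genes higher and 10 lower; the WT clone alone gave 335 and 94 genes and 32 and 14 regions. Slc2a1 lost its call in 15 settings, among them DESeq2, and Slc16a1 and Bcl2l11 in 8 each. Scaling over gene values alone gave 411 lower genes, and leaving out the 2 cultures that stand apart 966 higher ones. Leaving out 1 library gave 532 to 789 genes higher and 156 to 193 lower, 164 to 213 regions higher and 65 to 97 lower, with the most higher genes without unactivated parental WT replicate 3. With no low-count filter the line difference was called for 6 genes higher and 14 lower in the WT clone, in place of 0. Whether replicate numbers pair the cultures is not given, and the check did not show it for all pairs: deviations correlated at -0.44 to 0.40 in same-numbered libraries, over 0.1 in 9 of 18 pairs, against 8 of 36 pairs with different numbers. All 3 same-numbered pairs of activated WT clone and activated parental WT were over 0.1. A replicate block gave 589 higher and 193 lower genes, and 41 positive and 13 negative KO differences. Without the 7SL region the difference in the share of all regions was 0.106 percentage points and across gene ends 0.00408. Leaving out 1 library, the difference in the share outside genes ran between -0.0183 and 0.0481 percentage points. The causes of these shifts were not tested. Gene values from exonic or from other regions alone were not run, since no exon annotation was used here. Simulated 2-fold changes were called for 85.9% of gene values and 37.9% of all targets. Only gene values or targets with at least the median mean count were changed there, so detection at lower counts was not tested. The simulation held no cultures that stand apart. With no low-count filter 9730 gene values were tested, with 643 higher and 218 lower.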
